A study of Homo sapiens with 14 samples.

Results

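The 39 genes described here encode the Eph receptors and their ephrin ligands, the SLIT ligands and their ROBO receptors, and the netrins with their receptors of the UNC5 family, DCC and NEO1. The rule lists them by gene family and uses no measured value, but it was written with earlier results of these data known. All 39 symbols were found among the 58051 Ensembl genes of the deposited table. Of these, 36 passed the filter on low values and were tested, among 17102 tested genes in all. EPHA1, EPHA6 and ROBO4 did not pass. The RNA came from H9 human embryonic stem cells that had been differentiated for 25 days into MGE-like progenitors, meant to resemble the medial ganglionic eminence, the ventral forebrain zone that gives rise to interneurons. All 14 libraries had received SB431542 (2 µM) and LDN193189 (200 nM), blockers of TGF-beta and BMP signalling, up to day 6, and then SHH (250 ng/mL) and purmorphamine (0.3 µM) between day 10 and day 17. The groups were a line labelled Ctnnb1 knockout (KO, n = 5), unmodified wild-type cells (WT, n = 3), a line with inducible Ctnnb1 overexpression given doxycycline at 0.1 µg/mL from day 17 (OE with Dox, n = 3), and the same inducible line without doxycycline (OE without Dox, n = 3). CTNNB1 encodes beta-catenin, the transcriptional effector of canonical WNT signalling. The labels do not give the design of the knockout, the form of CTNNB1 expressed, its promoter, the number of clones, or whether replicates were separate differentiations, so p-values measure only the spread between these libraries. No WT library had doxycycline, so drug and transgene cannot be told apart.

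Eph receptors are receptor tyrosine kinases that bind ephrins on neighbouring cells: ephrin-As are tethered to the membrane by a lipid anchor, ephrin-Bs cross it and can themselves signal. The pairing repels growth cones and keeps cell populations apart, and in the ganglionic eminences it channels migrating interneurons. SLITs are secreted repellents read by ROBO receptors, while netrin-1 attracts axons through DCC and repels them through UNC5 receptors. In the intestine, EPHB2 and EPHB3 are known targets of beta-catenin and TCF factors.

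Levels are normalized counts, for which the authors scaled each library by its size factor, and folds are limma log2 folds of the normalized count plus 1 with their SE. A gene was called when its p, adjusted by the Benjamini-Hochberg method over all 17102 genes, was under 0.05. The recovered reads numbered 5233270 to 5639725 per library, and 0 reads allows up to 3, a normalized count of 2.60 to 2.84. CTNNB1 itself lay at 2090.3 to 2779 in KO against 3248 to 4393 in WT, and at 23861 to 31290.1 in OE with Dox against 3084 to 3633 in OE without Dox, so its transcript was lower but still present in KO. The MGE regulator NKX2-1 was detected in every library, at 2387 to 3475 in KO, 373 to 664 in WT, 274 to 910.5 in OE with Dox and 1378 to 2394 in OE without Dox. Marker lists moved with the groups. The summed level of 16 neuron markers was 16066 to 19699 in KO against 8809 to 10041 in WT, with 12 of the 16 called higher and 1 lower, and 6785 to 7385 in OE with Dox against 15302 to 17118 in OE without Dox, with 1 called higher and 12 lower. Of 17 tested dorsal telencephalon and hem markers 14 were lower in KO, summing to 653 to 981 against 6128 to 6256 in WT. With Dox, 4 of the 17 were higher and 7 lower, while the sum was 5142 to 5519 against 2478 to 3504 without. Of 14 tested MGE markers 7 were higher and 2 lower in KO, summing to 10845 to 13016 against 4038 to 4313 in WT, and 12 were lower with Dox, summing to 2709.8 to 3959 against 7978 to 12094 without. Of 11 tested mesenchyme markers 8 were higher with Dox, summing to 3058 to 7904 against 562 to 2069 without. With Dox, 4 of 6 epithelium and 3 of 6 choroid plexus markers were higher, choroid plexus summing to 3449 to 4650 with Dox against 1626 to 2099 without. Of 12 radial glia and progenitor markers, 8 were lower and 2 higher with Dox. Their sums overlapped, at 24692 to 29555 with Dox and 27007 to 29512 without. Of 9 floor plate markers 4 were lower in KO and 0 higher, their sums overlapping at 2144 to 4072 in KO and 2205 to 4279 in WT. The part of these shifts in the results below was not tested, and in such bulk samples fewer cells of a type and less RNA per cell cannot be told apart.

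A large share of the guidance genes differed from the control in KO and with Dox. In KO against WT, 6 of the 36 tested genes were higher (EPHA10, EPHB3, SLIT2, ROBO2, ROBO3, NTN4) and 10 lower (EPHA3, EPHA7, EPHB2, EPHB4, SLIT3, ROBO1, NTNG1, NTNG2, UNC5B, UNC5C). These 16 are 44.4% of the tested members, where 13.8% of all tested genes were called (6.64% higher and 7.15% lower). With Dox, 5 were higher than without (EPHA7, EPHA8, EPHB4, EFNA4, NTNG2) and 17 lower, which is 61.1% beside 25.7% of all genes (12.8% higher and 12.9% lower). The members' median log2 fold was -0.33 in KO, against -0.02 over all genes, and -0.49 with Dox, against 0.02 over all genes. Libraries of KO and WT did not overlap for 18 of the 36 tested members, beside 18.1% of all genes. Those with and without Dox did not overlap for 25 of the 36, beside 40.7% of all genes.

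**Figure D1:**
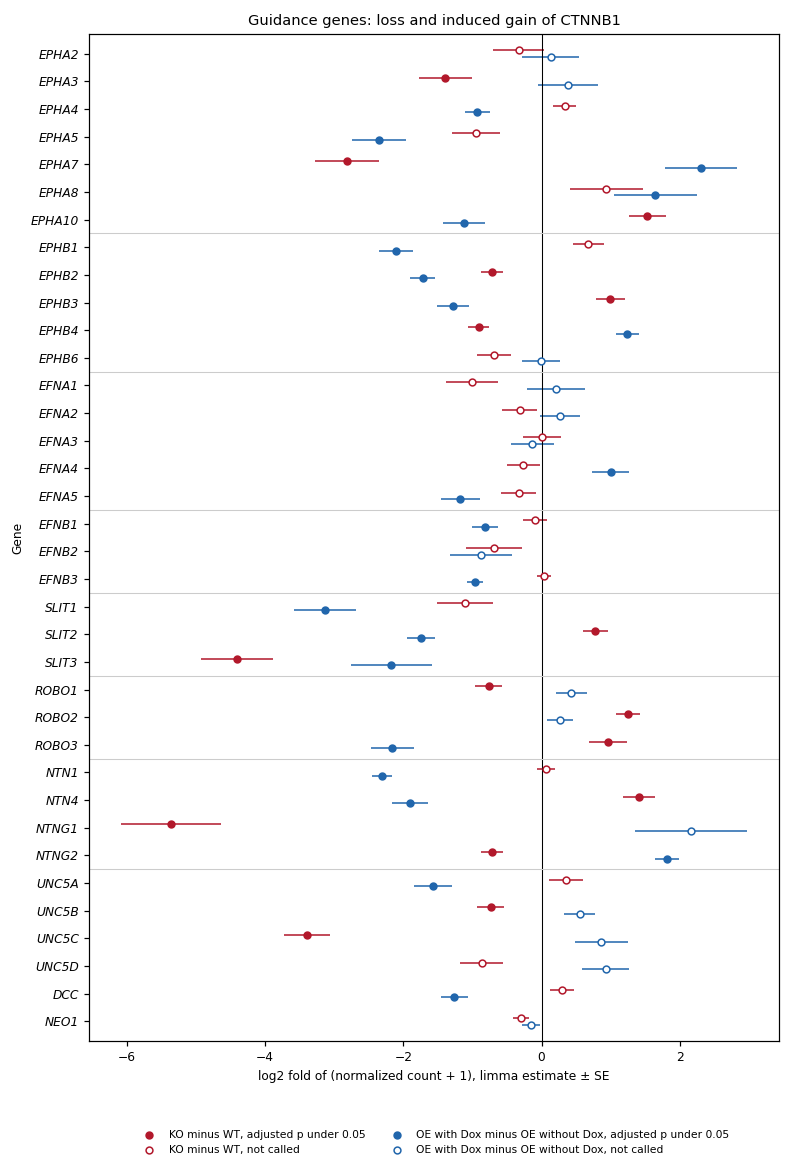
Log2 folds (limma estimate, bars ± SE) of the 36 tested guidance genes in KO against WT (red) and in OE with Dox against OE without Dox (blue), grouped by family; filled points have adjusted p under 0.05. All 3 SLIT genes and NTN1 lie left of 0 with Dox, while SLIT3, NTNG1 and UNC5C have the lowest values in KO.

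Ephrins, the ligands of the Eph receptors, gave no call in KO against WT. For the 5 ephrin-A and 3 ephrin-B genes limma called 0, where 13.8% of all tested genes were called, and with 8 genes the 0 is not read as a difference from that share. EdgeR and DESeq2 also called 0, and 1 of the 8, EFNA1, had an unadjusted p under 0.05 with limma; edgeR and DESeq2 also gave 1 at that level. With Dox, the class B ligands EFNB1 and EFNB3 fell. EFNB3 stood at 434, 439.6 and 402 in the 3 libraries with Dox against 872, 809.7 and 813 without (log2 fold -0.97, SE 0.11, adjusted p = 4.35e-06). Its KO values of 656 to 817 and WT values of 697 to 749.9 overlapped, at a log2 fold of 0.03 (SE 0.10) (adjusted p = 0.898). EFNB1, mutated in craniofrontonasal syndrome, had 476, 561 and 547 with Dox against 756, 895 and 1188 without (log2 fold -0.82, SE 0.19, adjusted p = 0.00387), again with no overlap. EFNB2 read 592, 433 and 183 against 690.4, 516 and 824, a log2 fold of -0.88 that was not called (adjusted p = 0.182). Of its exon bases 36.4% also lie in an antisense gene, and the strand setting of the counting is not given.

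Among the lipid-anchored ephrin-As, EFNA5 and EFNA4 went opposite ways with Dox. EFNA5, which guides axons in topographic maps, had 94.2, 245 and 155 with Dox and 334, 399.8 and 314 without (log2 fold -1.18, SE 0.28, adjusted p = 0.00451). EFNA4 had 104, 141 and 124 with Dox and 35.7, 85.1 and 72.5 without (log2 fold 1.002, SE 0.27, adjusted p = 0.00911). Neither gene's groups overlapped, but the EFNA4 call was lost without OE without Dox 1, the lowest library (log2 fold 0.63, adjusted p = 0.0666). EFNA4 and EFNA3 also share 15.0% and 43.9% of their exon bases with a readthrough gene, so their values are uncertain. EFNA1, EFNA2 and EFNA3 were not called in either comparison, at group means of 9.80 to 112.

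EphA receptors went both ways: of 7 tested, EPHA10 was higher and EPHA3 and EPHA7 lower in KO, while EPHA7 and EPHA8 were higher and EPHA4, EPHA5 and EPHA10 lower with Dox. EPHA7, a receptor of the early cortex and striatum (ENSG00000135333, chromosome 6, 93240020 to 93419687 in hg38), had the largest EphA fold in KO. It stood at 171, 109.5, 492, 321 and 169 in the 5 KO libraries against 958, 2202 and 1765 in the 3 WT libraries (log2 fold -2.82, SE 0.46, adjusted p = 0.0014). With Dox it stood at 1766, 2595 and 2399, against 273, 528 and 628 without (log2 fold 2.30, SE 0.52, adjusted p = 0.00587). In neither pair did the groups overlap, and KO 3 was the highest of the KO libraries. The KO value of 252 ± 155 (SD, n = 5) is also below the 477 ± 183 (SD, n = 3) of OE without Dox, but KO 3, at 492, lay within that group's range and the fold of -1.04 was not called (adjusted p = 0.557).

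EPHA10, which has a kinase domain held to be inactive, ran the other way at low levels. Its values were 54.5, 38.7, 26.5, 41.3 and 50.1 in KO against 13.3, 17.9 and 10.4 in WT (log2 fold 1.53, SE 0.27, adjusted p = 0.000634), and 10.2, 13.9 and 12.9 with Dox against 32.0, 21.3 and 31.7 without (log2 fold -1.13, SE 0.30, adjusted p = 0.00953). EPHA4, a receptor for both ephrin classes, fell to 649, 637 and 667 with Dox, against 1373, 982 and 1414 without (log2 fold -0.93, SE 0.18, adjusted p = 0.000828). In KO it was 929 to 1514 against 716 to 1027 in WT, overlapping and not called (adjusted p = 0.217). EPHA5 fell to 9.23, 6.51 and 11.1 with Dox, against 62.2, 45.3 and 41.7 without (log2 fold -2.36, SE 0.39, adjusted p = 0.000155), the largest EphA fold in that comparison. In KO, EPHA5 stood at 13.2 to 41.3 against 30.3 to 83.1 in WT (adjusted p = 0.0845).

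EPHA3 had 197, 141, 451, 279 and 174 in KO against 484, 666 and 667 in WT (log2 fold -1.39, SE 0.39, adjusted p = 0.0276). The groups did not overlap, yet the call was lost when KO 1, KO 2, KO 5 or any 1 of the WT libraries was left out (adjusted p 0.0507 to 0.111). EPHA8 had 36.0, 19.5 and 10.1 with Dox against 11.9, 10.2 and 0.907 without (log2 fold 1.65, SE 0.59, adjusted p = 0.0495); the groups overlapped, 1 library without Dox held a single read, and without that library, OE without Dox 3, the log2 fold was 0.76 (adjusted p = 0.291), and the call was also lost without OE with Dox 1 or 2, with DESeq2, with TMM scaling, with a pseudocount of 0.5 and when the compared groups were fitted alone. EPHA2, an epithelial receptor, was called in neither comparison and varied within groups, at 277 to 854 in KO and 379 to 993 in WT.

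EphB receptors, which bind the transmembrane ephrins, were called for 3 of 5 genes in KO and 4 of 5 with Dox. EPHB2 (ENSG00000133216, chromosome 1, 22710839 to 22921500) was lower in both settings. Its values were 1115, 1119.9, 858, 1248 and 1154 in KO against 1744, 1955 and 1679.6 in WT (log2 fold -0.71, SE 0.16, adjusted p = 0.00492), and 529, 533 and 322 with Dox against 1611, 1603 and 1268 without (log2 fold -1.72, SE 0.18, adjusted p = 9.5e-07). Every KO library lay below every WT library, and every library with Dox below every one without. The fall with Dox was larger than that in KO, with a difference of -1.01 between the log2 folds (SE 0.242, adjusted p = 0.00379).

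EPHB3 (ENSG00000182580, chromosome 3, 184561785 to 184582408), its close relative, had 782, 871, 393, 742 and 828 in KO against 429, 335 and 299 in WT (log2 fold 0.99, SE 0.21, adjusted p = 0.00327). KO 3 was the only KO library within the WT range. With Dox EPHB3 fell to 225, 232 and 174, against 513, 473 and 541 without (log2 fold -1.28, SE 0.23, adjusted p = 0.000485). Of the pair named above as beta-catenin targets in the intestine, both were lower with Dox in these cells. In KO, EPHB2 was lower and EPHB3 higher. Whether beta-catenin acts on either gene here was not tested.

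EPHB4, the receptor that pairs with EFNB2 in veins and arteries, was the EphB gene that was lower in KO and higher with Dox. It had 182, 224, 186, 224 and 228 in KO against 446, 325 and 415 in WT (log2 fold -0.91, SE 0.15, adjusted p = 0.000298), and 543, 679 and 743 with Dox against 244, 263 and 324 without (log2 fold 1.24, SE 0.17, adjusted p = 1.71e-05). Neither pair of groups overlapped. The summed level of 12 endothelium and blood markers was 163 to 204 with Dox against 28.3 to 78.7 without, with 3 of 4 tested called higher, KDR among them at 58.2 to 121 against 6.35 to 26.8, and 9.24 to 27.4 in KO against 54.9 to 112 in WT, with 2 of 4 called lower. The defining endothelial marker PECAM1 stayed at 2 reads over the 3 libraries with Dox and 3 reads over the 3 without, CDH5 at 10 and 2 reads, and HBG1 at 0 reads in every library; the part of these markers in the EPHB4 values was not tested. EPHB1 fell to 111, 191 and 83.9 with Dox, against 595, 491 and 498 without (log2 fold -2.11, SE 0.25, adjusted p = 5.56e-06), and in KO lay at 445 to 738 against 304 to 454 in WT, not called (adjusted p = 0.0517). EPHB6, which lacks kinase activity, was called in neither comparison, at 53.9 to 87.7 in KO, 91.8 to 134 in WT, 52.6 to 118 with Dox and 81.4 to 97.0 without.

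**Figure D2:**
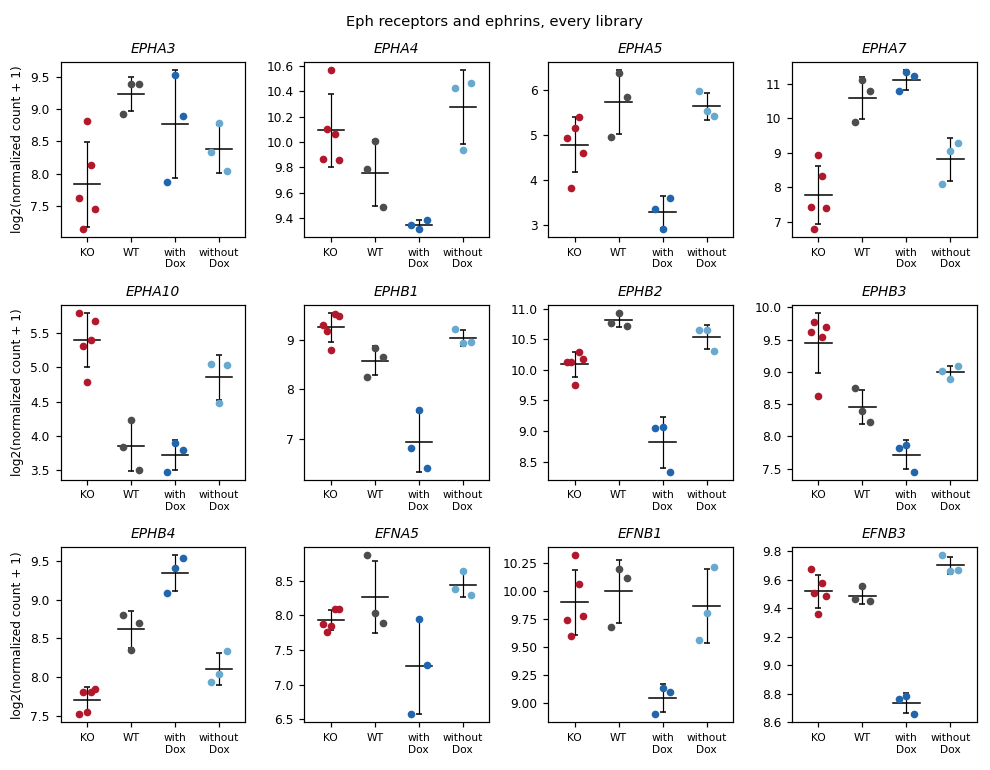
Log2 of the normalized count plus 1 of 12 Eph receptor and ephrin genes in each library of KO, WT, OE with Dox and OE without Dox; points are libraries, lines the group mean and bars ± SD. EPHA7 and EPHB4 are low in KO and high with Dox, EPHA10 and EPHB3 the reverse, and EPHB2 is low in both KO and OE with Dox relative to their controls.

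The 3 SLIT genes all fell with Dox, and in KO they differed in direction. SLIT2 (ENSG00000145147, chromosome 4, 20251905 to 20620561), a midline repellent, had 462, 436 and 323 with Dox against 1277, 1378 and 1384 without (log2 fold -1.74, SE 0.20, adjusted p = 3.82e-06). SLIT1 had 69.3, 152 and 49.8 against 636, 1332 and 435 (log2 fold -3.13, SE 0.45, adjusted p = 0.00015), and SLIT3 had 28.6, 48.3 and 9.22 against 79.6, 132 and 127 (log2 fold -2.17, SE 0.59, adjusted p = 0.0117). No group with Dox overlapped its group without, although the spread was wide for SLIT1 and SLIT3. Without OE with Dox 3, the lowest library, the SLIT3 log2 fold was -1.54 (adjusted p = 0.0601).

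In KO, SLIT3 was very low: the KO libraries held 6.47, 6.61, 10.4, 8.08 and 0.895, which is 35 reads in all, against 127, 136 and 146 in WT (log2 fold -4.41, SE 0.52, adjusted p = 2.72e-05). OE without Dox held 79.6, 132 and 127, so KO lay below every other library except that OE with Dox 3 was within its range. SLIT2 rose in KO, at 1280.3, 1438, 784, 1509 and 1527 against 801, 740.0 and 685 in WT (log2 fold 0.78, SE 0.18, adjusted p = 0.00621), with KO 3 inside the WT range. SLIT1 stood at 319, 238, 139, 181 and 171 in KO and 367, 609.5 and 369 in WT; the groups did not overlap, and its log2 fold of -1.11 was not called against WT (adjusted p = 0.094).

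Promoters were searched for the core CTTTGAA and its 3 variants that end in AT, TA or TT in place of AA, letters that TCF and LEF factors, the DNA-binding partners of beta-catenin, can bind, on either strand in the 300 bases from 250 before to 50 after each RefSeq start (GRCh38.p14). Of the 33 members with a window, 2 held a core, beside 16.4% of all genes with a window. They were SLIT1, called lower with Dox, and EFNA4, called higher with Dox, whose core is CTTTGTA. Whether a core bears on the Dox values was not tested. The 250 bases before the SLIT1 start (chr10:97185960-97186209, minus strand) are shown because SLIT1 had the largest fall with Dox among the members. Capitals mark the core.
SLIT1: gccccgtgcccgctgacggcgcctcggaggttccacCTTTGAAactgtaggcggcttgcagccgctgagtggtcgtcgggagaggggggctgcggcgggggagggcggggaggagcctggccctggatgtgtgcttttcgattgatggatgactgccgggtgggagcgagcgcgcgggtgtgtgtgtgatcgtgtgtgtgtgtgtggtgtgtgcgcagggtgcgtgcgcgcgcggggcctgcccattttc
Matching letters are no evidence of binding, and no match says only that the letters are not in these windows.

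ROBO genes, the SLIT receptors, were all called in KO: of the 3 tested, ROBO2 and ROBO3 were higher and ROBO1 lower. ROBO2 (ENSG00000185008, chromosome 3, 75906695 to 77649964) had 496, 442, 402, 552 and 438 in KO against 230.0, 195 and 162 in WT (log2 fold 1.25, SE 0.17, adjusted p = 5e-05), with no overlap. ROBO3, a divergent member that in mammals binds no SLIT with high affinity, had 334, 168, 390.2, 346 and 270.2 in KO against 147, 156 and 143 in WT (log2 fold 0.96, SE 0.28, adjusted p = 0.0287). That call was lost without KO 1, KO 3, KO 4 or any 1 WT library (adjusted p 0.0626 to 0.104). ROBO1 had 443, 461, 393, 561 and 685 in KO against 632, 1083 and 889 in WT (log2 fold -0.76, SE 0.20, adjusted p = 0.0133); the groups overlapped, and the call was lost without WT 2 or WT 3 (adjusted p 0.0619 to 0.0966).

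With Dox, ROBO3 alone of the ROBO genes was called, and it fell. Its values were 109, 151 and 119 with Dox against 875, 329 and 615 without (log2 fold -2.16, SE 0.31, adjusted p = 6.2e-05). ROBO1 had 583 to 838 with Dox against 480.5 to 672 without, and ROBO2 had 427 to 611 against 352 to 579.8, overlapping and not called (adjusted p = 0.172 and 0.347). For all 3 receptors the Dox effect differed from the KO effect, by 1.20 (SE 0.30) for ROBO1, -0.99 (SE 0.26) for ROBO2 and -3.12 (SE 0.42) for ROBO3 on the log2 scale (adjusted p = 0.00504, 0.00687 and 2.6e-05).

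Netrin-1, the secreted ligand of DCC, had the lowest adjusted p with Dox among the 36 genes. NTN1 (ENSG00000065320, chromosome 17, 9021510 to 9244000) had 211, 276 and 231 with Dox against 1046, 1361 and 1159 without (log2 fold -2.31, SE 0.14, adjusted p = 1.65e-09). In KO it had 1043, 906, 874, 859 and 851 against 768, 862 and 972 in WT, and the log2 fold of 0.07 (SE 0.13) was not called (adjusted p = 0.812). The difference between the Dox and KO effects was -2.37 (SE 0.19, adjusted p = 3.78e-08). NTN4, a laminin-binding netrin of basement membranes, had 188, 173, 318, 267 and 179.9 in KO against 90.9, 99.2 and 59.8 in WT (log2 fold 1.41, SE 0.23, adjusted p = 0.000309), and 53.6, 55.8 and 34.1 with Dox against 205, 152 and 182 without (log2 fold -1.91, SE 0.26, adjusted p = 1.88e-05). Neither pair of its groups overlapped.

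The netrin-Gs are membrane-anchored relatives that bind NGL proteins and not DCC. Their calls ran opposite to those of NTN4: NTNG1 and NTNG2 were lower in KO, and NTNG2 was higher with Dox. NTNG2 had 55.4, 53.8, 49.1, 46.7 and 51.0 in KO against 71.0, 95.6 and 90.1 in WT (log2 fold -0.72, SE 0.16, adjusted p = 0.00358), and 223, 266 and 261 with Dox against 71.3, 77.7 and 62.6 without (log2 fold 1.81, SE 0.17, adjusted p = 3.63e-07). Within each group the libraries were close together, and no groups of a pair overlapped. NTNG1 had 0, 1.89, 6.61, 2.69 and 3.58 in KO, 16 reads in all with 1 library at 0, against 37.9, 459 and 136 in WT (log2 fold -5.37, SE 0.72, adjusted p = 0.000123). The WT libraries were far apart, and the log2 fold was -6.26 without WT 1 and -4.48 without WT 2. With Dox, NTNG1 had 61.9, 26.95 and 60.8 against 11.9, 15.7 and 4.53 without; the groups did not overlap, and the log2 fold of 2.17 (SE 0.81) was not called (adjusted p = 0.0637).

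Of the 6 netrin receptors, UNC5B and UNC5C were lower in KO, and DCC and UNC5A were lower with Dox. UNC5C (ENSG00000182168, chromosome 4, 95162504 to 95549206), a repulsive netrin receptor, had 6.47, 7.55, 11.3, 8.98 and 7.16 in KO against 54.9, 119.8 and 132 in WT (log2 fold -3.40, SE 0.34, adjusted p = 1.49e-06), and each of the 9 libraries of the other groups was above the KO range. UNC5B, the family member of the vasculature, had 99.8, 97.3, 65.2, 68.3 and 77.8 in KO against 129.7, 143 and 131 in WT (log2 fold -0.73, SE 0.20, adjusted p = 0.0155), a call that was lost without WT 2 (adjusted p = 0.0652). With Dox these receptors were not called: UNC5C had a log2 fold of 0.87 (SE 0.38) and UNC5B 0.55 (SE 0.22). For UNC5B the Dox effect was called above the KO effect. All 22 alternatives kept that call, at differences of 1.06 to 1.45 between the log2 folds.

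DCC (ENSG00000187323, chromosome 18, 52340197 to 53535899), the receptor for attraction, fell with Dox, to 718, 453 and 360.4 against 1174, 1069 and 1295 without (log2 fold -1.26, SE 0.20, adjusted p = 8.64e-05), as did UNC5A, at 24.0, 28.8 and 34.1 against 95.1, 98.1 and 71.6 (log2 fold -1.57, SE 0.28, adjusted p = 0.000285). In KO, DCC had 789 to 959 against 584 to 864 in WT and UNC5A 52.9 to 138 against 65.0 to 78.7, overlapping in either case and not called (adjusted p = 0.321 and 0.422). UNC5D was called in neither comparison, at 46.2, 51.0, 87.9, 76.4 and 43.8 in KO against 113, 94.7 and 118 in WT (adjusted p = 0.0727) and 111, 294 and 342 with Dox against 108, 110.1 and 135 without (adjusted p = 0.0566). Its KO libraries were all below WT, and with the replicate block it was called higher with Dox (log2 fold 0.93, adjusted p = 0.0207). Tested directly, the Dox effect on UNC5D was above its KO effect. That call was kept in all 22 alternatives, at differences of 1.49 to 2.30 between the log2 folds. NEO1, a DCC relative that also binds RGM proteins, was not called either, at 719 to 1032 in KO, 993 to 1170.1 in WT, 806 to 916 with Dox and 940.1 to 951 without, with log2 folds of -0.30 (SE 0.12) in KO and -0.15 (SE 0.13) with Dox.

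**Figure D3:**
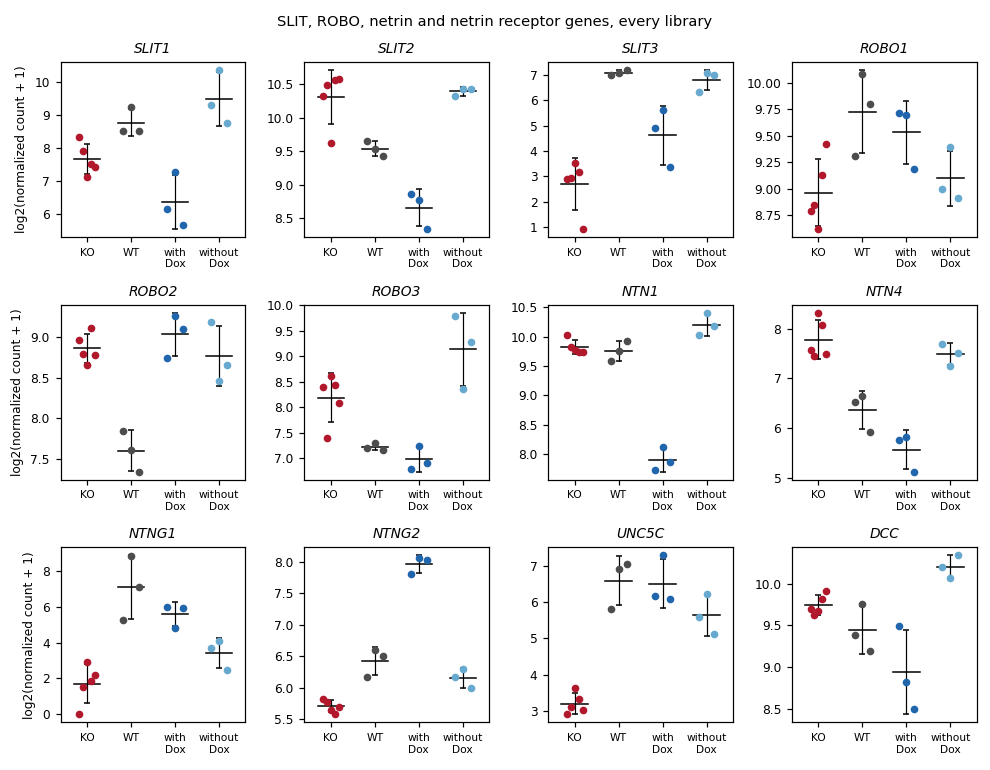
Log2 of the normalized count plus 1 of 12 SLIT, ROBO, netrin and netrin receptor genes in each library of KO, WT, OE with Dox and OE without Dox; points are libraries, lines the group mean and bars ± SD. SLIT3, NTNG1 and UNC5C are lowest in KO, and NTN1, SLIT1, SLIT2 and NTN4 are lowest in OE with Dox.

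The effects of KO and of Dox share no library, so their directions can be set side by side. Of the 36 tested genes, 10 were called in both comparisons, 6 in KO alone, 12 with Dox alone and 8 in neither. Among the 10, the directions were opposite for 8 (EPHA7, EPHA10, EPHB3, EPHB4, SLIT2, ROBO3, NTN4, NTNG2) and the same for EPHB2 and SLIT3. That is 80.0% opposite, beside 83.4% of the 1337 genes called in both comparisons over the whole table, a share near the background. Tested directly, the Dox effect was above the KO effect for 11 members and below it for 15, which is 72.2% of the 36 beside 28.8% of all genes (15.1% above and 13.6% below). NTNG1 had the largest difference between the log2 folds, 7.54 (SE 1.09), with an adjusted p of 8.4e-05, on 16 KO reads. It was 8.43 without WT 1 and 6.65 without WT 2. EPHA7 followed with 5.12 (SE 0.70) and UNC5C with 4.26 (SE 0.51). At the other end stood NTN4 with -3.32 (SE 0.35), ROBO3 as given above and EPHB1 with -2.79 (SE 0.33). The differences for EFNB1 (-0.72, adjusted p = 0.0453), EPHA3 (1.78, 0.034), SLIT1 (-2.02, 0.0227) and SLIT3 (2.23, 0.0438) were each no longer called when some single libraries were left out.

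The uninduced line gives a second control, in which CTNNB1 was not called against WT (log2 fold -0.18 (SE 0.14), adjusted p = 0.545). OE without Dox differed from WT for 7 of the 36 genes, 19.4% beside 5.74% of all genes (586 higher and 396 lower). Without OE without Dox 1, all genes gave 269 and 152, without OE without Dox 3 they gave 343 and 205, and without WT 3 they gave 305 and 174. SLIT2, ROBO2, ROBO3, NTN4 and DCC were higher (3.43% of all genes) and NTNG1 and UNC5B lower (2.32%). Of these 7, ROBO2 and ROBO3 kept their call whichever library of the compared groups was left out, and the count of higher members fell to 2 without OE without Dox 1 or 3 or WT 3. With the replicate block ROBO1 was also lower (log2 fold -0.63, adjusted p = 0.0287). The 2 groups did not overlap for 18 of the 36 tested members, beside 23% of all genes. In KO against OE without Dox, 0 genes were higher and 3 lower, which is 8.33% beside 2.11% of all genes (1.75% lower, 0.351% higher). These groups did not overlap for 11 of the 36 tested members, beside 6.86% of all genes. The 60 higher and 300 lower among all genes were 23 and 157 without OE without Dox 2, and 22 and 231 without OE without Dox 3. Without KO 2 or KO 5 they were 37 and 255, and 38 and 261. For the 0, edgeR and DESeq2 also gave 0, and 1 gene, EPHB3, was higher at an unadjusted p under 0.05 with limma. The 3 lower genes were SLIT3 (log2 fold -4.11, SE 0.52, adjusted p = 0.000277), UNC5C (log2 fold -2.44, SE 0.34, adjusted p = 0.000289) and SLIT1 (log2 fold -1.83, SE 0.40, adjusted p = 0.0315). The SLIT1 call was lost when any 1 of KO 2 to KO 5, OE without Dox 1 or OE without Dox 2 was left out (adjusted p 0.0598 to 0.142).

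For some genes the values against the 2 controls were far apart. ROBO2 had a log2 fold of 1.25 (SE 0.17) in KO against WT and 0.09 (SE 0.17) against OE without Dox, beside 1.16 (SE 0.19) in OE without Dox against WT. SLIT2 had 0.78 (SE 0.18), -0.08 (SE 0.18) and 0.86 (SE 0.20) in the same order, and ROBO3 had 0.96 (SE 0.28), -0.95 (SE 0.28) and 1.91 (SE 0.31). ROBO3 thus differed in sign between the controls, although it was not called against OE without Dox. UNC5B had -0.73 (SE 0.20) against WT and 0.12 (SE 0.20) against OE without Dox. Against OE without Dox, SLIT2 and UNC5B were within their SE of 0. UNC5C had log2 folds of -3.40 (SE 0.34), -2.44 (SE 0.34) and -0.95 (SE 0.38). These comparisons share libraries and are not independent of each other. Neuron markers summed to 15302 to 17118 in OE without Dox, near the 16066 to 19699 of KO and above the 8809 to 10041 of WT. MGE markers summed to 7978 to 12094 in OE without Dox against 4038 to 4313 in WT, with 6 of 14 higher, and dorsal markers to 2478 to 3504 against 6128 to 6256, with 7 of 17 lower. The part of these markers in the control's shift was not tested.

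**Figure D4:**
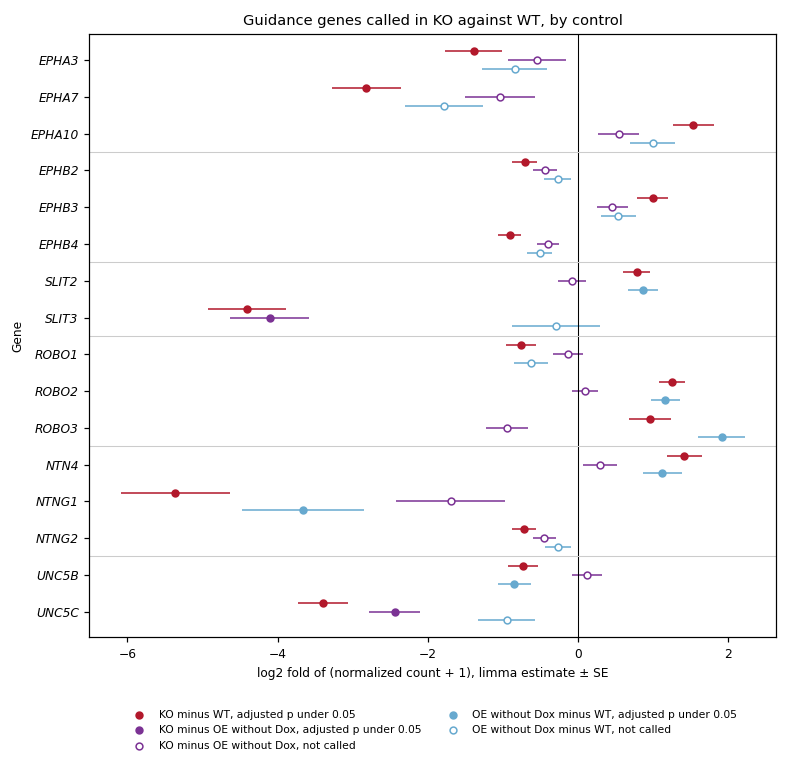
Log2 folds (limma estimate, bars ± SE) of the 16 guidance genes called in KO against WT, shown for KO against WT (red), KO against OE without Dox (purple) and OE without Dox against WT (light blue); filled points have adjusted p under 0.05. SLIT3 and UNC5C are filled and far left of 0 against both controls, while the KO points of ROBO2 and SLIT2 lie right of 0 against WT and near 0 against OE without Dox.

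OE with Dox can also be set against WT. In that comparison 6 members were higher (EPHA8, EPHB4, EFNA4, ROBO2, NTNG2, UNC5D) and 14 lower, 55.6% beside 20.5% of all genes (10.4% higher and 10.1% lower). The groups did not overlap for 21 of the 36 tested members, beside 31.6% of all genes. Only 3 were higher when OE with Dox 2, WT 2 or WT 3 was left out. NTN1 (log2 fold -1.86, SE 0.14, adjusted p = 2.73e-08), EPHB2 (log2 fold -1.99, SE 0.18, adjusted p = 2.16e-07) and EPHB1 (-1.65) were lower with Dox than in WT, as were SLIT1 (-2.42), SLIT2 (-0.88) and SLIT3 (-2.47) and the ephrin-Bs EFNB1 (-0.95), EFNB2 (-1.36) and EFNB3 (-0.75). EFNB2 was not called in the other comparisons (here adjusted p = 0.0482), and the call was lost in 10 of 15 alternatives: without OE with Dox 2 or 3 or WT 1 or 2, with edgeR, TMM scaling, a pseudocount of 5, no filter or the replicate block, and when the compared groups were fitted alone. EPHA7, ROBO3, EPHA4, EPHA10 and DCC were not called with Dox against WT, with log2 folds of 0.52, -0.25, -0.41, -0.13 and -0.51. NTNG2 (log2 fold 1.54, SE 0.17, adjusted p = 2.98e-06) and EPHB4 (log2 fold 0.73, SE 0.17, adjusted p = 0.00359) were higher with Dox than in either control.

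To compare levels between genes, normalized counts were divided by the annotated exon length in kilobases. That length joins all exons annotated for a gene, 3303 bases for EFNB1, 12516 for EPHB2 and 16460 for EPHA7. It can exceed the length of the transcripts present, which was not measured, so the order between genes depends on the annotation. By this scale EFNB1 and EFNB3 had the highest values in KO, WT and OE without Dox. EFNB1 ranked 1 of 39 in every group, at 294 ± 61.3 per kilobase in KO, 313 ± 58.0 in WT, 159.8 ± 13.9 with Dox and 287 ± 66.8 without Dox (SD). EFNB3 came next in KO, WT and OE without Dox, at 228 ± 18.5, 223 ± 8.87 and 259 ± 10.96, and its level was within 1 SD of EFNB1 in OE without Dox only. With Dox, EPHA7 came 2nd at 137 ± 26.3, within its SD of EFNB1 and of EFNB3 (132 ± 6.33). Of the receptors, EPHB3 (159.6 ± 42.1) and EPHA4 (147 ± 31.7) were highest in KO and did not differ beyond their spread, whereas in WT EPHA2 (145 ± 82.4) and EPHB2 (143 ± 11.5) were. NTN1 was 5th in KO, at 141 ± 12.3, 6th in WT, at 135 ± 15.9, 3rd in OE without Dox, at 185 ± 24.9, and 16th with Dox, at 37.3 ± 5.22. EPHA7 was 25th in KO, 9th in WT, 2nd with Dox and 22nd without. The 3 untested members were low throughout: EPHA1 had normalized counts of 1.80 to 8.50 in KO, 0.866 to 10.4 in WT, 1.85 to 10.2 with Dox and 1.81 to 4.63 without. ROBO4, the endothelial ROBO, had 1.79 to 5.67, 0.947 to 3.46, 1.84 to 2.79 and 2.74 to 5.44 in the same order. EPHA6 had 4.47 to 9.45 in KO against 0 to 1.89 in WT, where every library lay below every KO library, and 3.69 to 14.9 with Dox against 4.63 to 7.32 without.

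**Figure D5:**
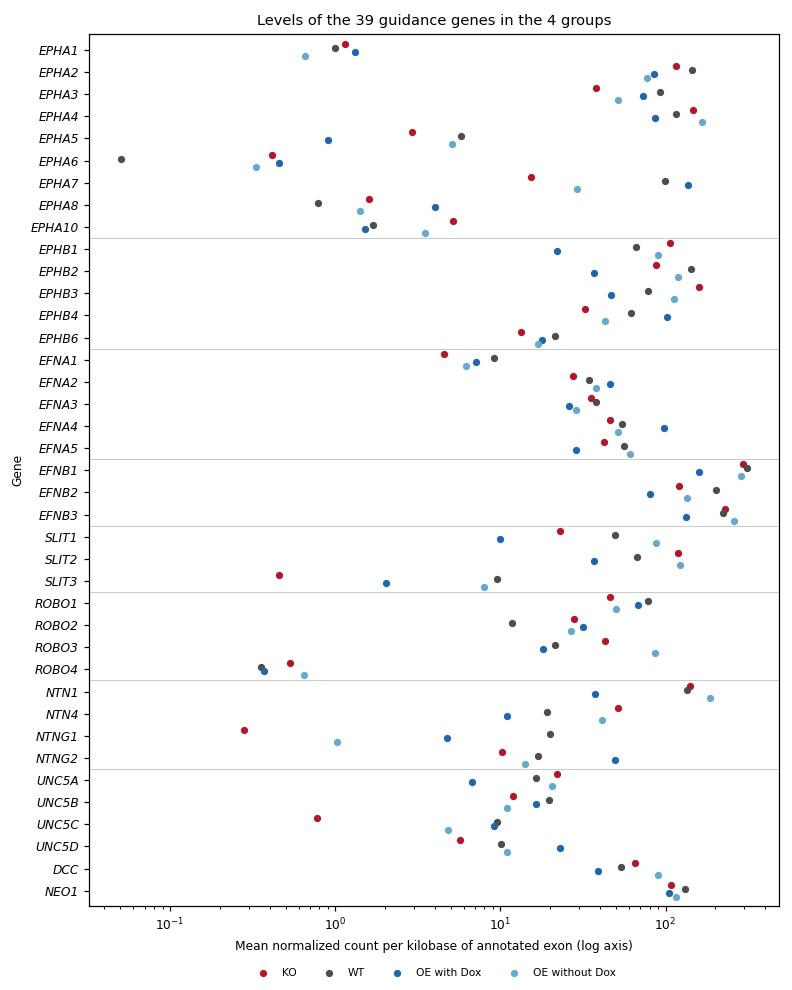
Mean normalized count per kilobase of annotated exon (log axis) of all 39 guidance genes in KO (red), WT (grey), OE with Dox (dark blue) and OE without Dox (light blue). EFNB1 is the highest in each group, and SLIT3, NTNG1 and UNC5C have their KO points far left of WT.

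A list of 60 further genes that act with these ligands and receptors was read beside them, 59 of them tested. In KO, 10 were higher and 10 lower (33.9%, median log2 fold -0.00268), and with Dox 11 were higher and 16 lower (45.8%, median -0.09), against 13.8% and 25.7% of all genes. PAK3, a kinase activated by RAC and CDC42, had 1378 ± 125 in KO against 620.0 ± 109.7 in WT (log2 fold 1.16, adjusted p = 7.53e-06), and 321 ± 47.4 with Dox against 1371 ± 115 without (log2 fold -2.10, adjusted p = 8.91e-09). FLRT2, a ligand of UNC5 receptors, was 51.8 ± 11.3 in KO against 167 ± 21.5 in WT (log2 fold -1.69, adjusted p = 1.54e-05). PDZRN3, a ubiquitin ligase, moved opposite to PAK3: 13.0 ± 4.36 in KO against 74.0 ± 18.8 in WT (log2 fold -2.45, adjusted p = 1.78e-05), and 275 ± 20.4 with Dox against 42.2 ± 17.9 without (log2 fold 2.77, adjusted p = 6.33e-06). VAV3, an exchange factor that acts below Eph receptors, had 3.14 ± 2.18 in KO against 41.5 ± 13.98 in WT (log2 fold -3.56, adjusted p = 5.47e-05). With Dox, LINGO1, a neuronal membrane protein of the NOGO receptor complex, rose to 1506 ± 227 against 308 ± 32.6 without (log2 fold 2.28, adjusted p = 4.13e-08), and ANKS1B, an adaptor of the family that binds Eph receptors, was 28.7 ± 3.33 against 125 ± 10.52 (log2 fold -2.09, adjusted p = 7.6e-07).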

How the data were processed

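Total RNA, 500 ng for each library, was sequenced per the labels' protocols. The authors deposited a signal table of normalized counts for 58051 Ensembl genes, in which each gene's reads had been divided by the library's size factor: 100.0% of values were whole multiples of 1 step per library, at a tolerance of 0.01. Tools listed in the submitters' processing notes are DESeq2, R 3.4.0, HTSeq 0.9.1 and TopHat2 2.1.1, with hg38 as the build and no roles given. The annotation release and strand setting are not given in the sources used here. Names, coordinates and exon lengths came from GENCODE 44 (hg38), which named 56948 genes. A gene was tested if 3 or more libraries had a normalized count of 10 or more, with limma 3.58.1 (R 4.3.3; trended, robust, two-sided) on log2 of the normalized count plus 1, in 1 model of 4 groups and 14 libraries. Adjusted p-values cover all 17102 genes. On recovered reads, edgeR 4.0.16 called 1194 genes up and 1224 down in KO against WT, where limma called 1136 and 1223. For OE with Dox against OE without Dox, edgeR gave 2180 up and 2240 down, and limma 2189 and 2204. DESeq2 1.42.0 on the same reads, other pseudocounts, filters and scaling, a replicate block, a model of only the compared groups, and fits without 1 library were the alternatives. On counts simulated for KO against WT over 16941 genes, 84% of 2-fold and 99% of 4-fold changes were recovered, and 6.63% of the calls were false. The changed genes were drawn only from genes of higher mean level, so these shares do not cover low members such as EPHA8 and EPHA10. Figures used Python 3.11.15 and matplotlib 3.10.9. All 39 members are accounted for. Those called in KO against WT or with Dox against without are given by library in the groups of the comparison that called them. For the remaining groups, values by library or ranges are given for some members only. Of the partners, the 4 called genes of lowest adjusted p in each of the first 2 comparisons are named. Libraries with the same number deviated together, each of 3 correlations over 0.1, between OE with Dox and OE without Dox (0.22 to 0.40). The same held between WT and OE without Dox (0.17 to 0.28), and not in every pair between the other groups (-0.29 to 0.25). Over all groups, 12 of 18 correlations between libraries of the same number were over 0.1 (median 0.17). Between libraries of different number 9 of 54 were (median -0.06), up to 0.44 between KO 2 and WT 1. The labels give no pairing, so whether the numbers pair the libraries is not known, and the main model does not pair them. The members and lists were chosen with earlier results of these data known. Floors cover counting error only.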

Additional observations from a re-analysis of the deposited data

Results flagged for a closer look

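Among the 40 genes checked in the 5 KO libraries (the 39 members and CTNNB1), 2 had a library far from the others by Dixon's criterion, which chance alone gives in about 1 in 20 groups. EPHB3 stood at 393 in KO 3, against 742 to 871 in the other 4 KO libraries. NTN1 stood at 1043 in KO 1, against 851 to 906 in the other 4.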

How the results depend on the processing

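No direction of a called member turned under any alternative tried. Counts of called members stayed within 1.5 times in all settings other than leaving out a library, except that 1 in place of 2 was lower in OE without Dox against WT with no filter. Over the settings that leave out 1 library, the number of members called higher was 5 to 6 in KO against WT, 4 to 6 with Dox against without, 3 to 5 with Dox against WT, 2 to 6 in OE without Dox against WT and 0 to 1 in KO against OE without Dox. The number called lower was 7 to 11, 16 to 17, 11 to 14, 0 to 4 and 2 to 3 in the same order. The difference of the Dox and KO effects gave 9 to 11 above and 13 to 16 below. A lone library was never left in a group.

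With the replicate block, the KO libraries had 5 members above and 11 below WT, OE with Dox had 6 above and 17 below OE without Dox, and KO had 0 above and 4 below OE without Dox. In the 2 comparisons where same-numbered libraries deviated together, OE with Dox against OE without Dox and OE without Dox against WT, the block added UNC5D and ROBO1 and ended no call of a member. In the others the block ended the calls of EPHA3 and ROBO3 in KO against WT, of EFNB2 and NTN4 in OE with Dox against WT, and of EPHA3 in the difference of the Dox and KO effects. There it added EPHB6 and SLIT1 in KO against WT, EPHB2 in KO against OE without Dox and EPHB6 in the difference. Over all genes, DESeq2 called 92 higher in KO against OE without Dox and the filter of 50 in 3 libraries 38, where limma called 60, and 300 and 207 lower for limma and that filter. In OE without Dox against WT, DESeq2 called 811 higher and 595 lower, where limma called 586 and 396.

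Calls lost with any 1 library left out, beside those named in the report, were as follows. For the difference of the Dox and KO effects, EFNB1 was lost without KO 3 or 4, any library with Dox, OE without Dox 2 or 3, or WT 1 or 3. EPHA3 was lost without KO 1 or 5, OE with Dox 2 or 3, OE without Dox 1 or 3, or WT 2 or 3. SLIT1 was lost without OE with Dox 1 or 3 or WT 1 or 3. SLIT3 was lost without any library but KO 3 to 5 and OE with Dox 3. In OE with Dox against WT, EFNA4 (log2 fold 0.82), EFNA5, EPHA8 (2.03), EPHB3 (-0.74), NTN4 (-0.79) and UNC5D (1.04) were each lost without at least 2 of the 6 libraries. Fitting the compared groups alone also ended EFNA5, NTN4 and UNC5D there and NTNG1 in OE without Dox against WT, and edgeR ended NTN4. With no filter, calls were lost for EPHA3 and ROBO3 in KO against WT, SLIT3 with Dox against without, SLIT1 in KO against OE without Dox, UNC5D in OE with Dox against WT, NTNG1 in OE without Dox against WT, and EPHA3, SLIT1 and SLIT3 in the difference, where a pseudocount of 0.5 also ended SLIT3. CTNNB1 in KO against OE without Dox (-0.49, adjusted p = 0.0473) was lost without any KO or OE without Dox library but KO 2, with the replicate block, with the filter of 50 and with edgeR. The NTNG1 log2 fold in OE without Dox against WT was -4.56 without WT 1 and -2.78 without WT 2, and that of SLIT3 in OE with Dox against WT was -1.84 without OE with Dox 3. Depth limits values below about 10 normalized counts to a few reads per library. Among these are EPHA1, EPHA6 and ROBO4, the KO values of SLIT3, NTNG1 and UNC5C, and some values of EPHA5 and EPHA8.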
